A study of Danio rerio with 24 samples.

Results

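Cyclins, cyclin-dependent kinases (Cdks) and proteins of DNA replication were followed by name through zebrafish (Danio rerio) embryos in which mRNAs had been knocked down with RfxCas13d (Cas13d), a nuclease that guide RNAs direct to a matching RNA. Every row of the deposited expression table was taken whose symbol begins, in lower case, with ccna, ccnb, ccnd or ccne and a digit, or with cdk, mcm, orc, gins, rfc or cdc and a digit. This gave 99 members of 32521 rows. The rule reads names only and no measured value. Some members therefore carry a cell cycle name without being cell cycle proteins, among them 15 genes named for the Cdc42 GTPase.

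Embryos were injected at the 1-cell stage, and whole-embryo poly(A) RNA was sequenced 6 h later in 24 libraries, 2 biological replicates in each of 12 groups. All 6 groups of the first set, controls included, came from transgenic embryos carrying maternally provided RFP mRNA. They received Cas13d mRNA (200 to 250 pg per embryo) with nanog guides (500 to 600 pg), with rfp guides, with a reporter and dnd guides, with the reporter, or alone, or no injection. The reporter was 40 pg of gfp mRNA with the nanos 3′ untranslated region. The second set, whose labels name no transgene, received Cas13d protein (3 ng) with szrd1 guides, with the reporter and dnd1 guides, with the reporter, or alone, or Cas13d mRNA with szrd1 guides or alone. For replicate 2 of the protein, reporter and dnd1-guide group the protein dose is unclear in the label. No uninjected library belongs to the second set, and the sets were never compared by a test because set and treatment cannot be told apart. A whole embryo mixes all its cells, so fewer cells of a type and less RNA per cell cannot be told apart. How many embryos went into a library is not given in the sources used here.

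The cell cycle is driven by cyclins that bind and switch on Cdks: D- and E-type cyclins act at the entry into S phase, A-type cyclins in S phase and towards mitosis, and B-type cyclins in mitosis. Before S phase the origin recognition complex (Orc) and Cdc6 load the Mcm2 to Mcm7 ring onto DNA. Cdc45 and the Gins complex then join it to form the replicative helicase, and replication factor C (Rfc) loads the sliding clamp for the polymerases. The first divisions of a fish embryo are rapid and run on mRNA and protein that the mother laid down in the egg, and that maternal mRNA is cleared as the embryo's own genome becomes active. The selection rule names ccna1, cyclin A1, as a maternal form, to be set against the other members.

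Levels are in TPM, a unit that divides reads by transcript length and scales each library to a fixed total, so levels may be compared between genes and each is a share of its library. The members together took between 0.606 and 1.04% of a library's TPM. Over all 24 libraries 31 members averaged at least 100 TPM, 33 between 10 and 100 TPM, 22 between 1 and 10 TPM and 13 under 1 TPM. Tests were run with limma on log2(TPM + 1) over all genes with a mean of at least 1 TPM in a set, which kept 86 members in the first set and 83 in the second. Of the other members, 12 were tested in neither set. A gene was called when its Benjamini-Hochberg adjusted p was under 0.05 and its log2 change was 1 or more in size. Log2 changes are differences of group means on this scale, which understates the change of genes with low TPM.

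Some libraries stood apart. The median absolute log2 difference between replicates over the members was 0.0755 to 0.174 in 11 groups and 0.543 in the nanog-guide group, where replicate 1 was lower for most members; over all tested genes that pair differed by 0.502. Cas13d protein libraries without guides or reporter differed from their Cas13d mRNA controls at 3228 of 14716 genes. In them nanog mRNA, which no guide targeted there, averaged 8.09 TPM, and 153 TPM in the Cas13d mRNA controls. Targeted mRNAs were lower in 3 comparisons looked at here. Nanog averaged 39.03 TPM with its guides and 289 TPM in the Cas13d mRNA controls. In the first set dnd1 averaged 1.31 TPM with reporter and dnd guides and 11.2 TPM with the reporter. The szrd1 mRNA averaged 40.8 TPM with guides and protein and 264 TPM with protein alone. The other targeted groups, rfp guides among them, are not shown.

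Of the 99 members, 87 were tested in at least 1 set, and 27 of these (31%) were called in at least 1 of 12 comparisons. Of all 16125 genes tested 30.5% were. With nanog guides 0 members were called higher and 7 lower (8.14%) than with Cas13d mRNA alone, where 1.95% of all genes tested were called higher and 2.12% lower. With rfp guides 0 were called higher and 4 lower (4.65%), against 2.16% higher and 3.83% lower over all genes; these comparisons share their control libraries. Between nanog and rfp guides 1 member was called higher and 0 lower (2.06% and 1.78% of all genes). In the second set Cas13d protein against Cas13d mRNA gave 6 members higher and 9 lower of 83, shares of 7.23% and 10.8%, while 11.1% of all genes were called higher and 10.8% lower. The members' share there was below that of all genes for higher calls and about equal to it for lower calls.

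Comparisons of protein groups with guides or a reporter also held called members. Protein with szrd1 guides against protein alone gave 4 higher and 1 lower (2.55% and 0.381% of all genes). Protein with the reporter against protein alone gave 10 higher and 4 lower (8.28% and 9.28%). Of those 10, 7 were also called lower with protein alone than with Cas13d mRNA. All 4 lower members were also called higher with protein alone than with Cas13d mRNA. The share of all genes called in both comparisons is not given. Protein with the reporter against Cas13d mRNA gave 0 higher and 1 lower (0.51% and 1.13%). Comparisons with the same control libraries, here protein alone or Cas13d mRNA alone, are not independent of each other.

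In limma no member was called in 5 comparisons. These were the reporter against Cas13d mRNA (0.642% of all genes higher, 0.197% lower), dnd guides against the reporter (0.0197% and 0.00656%), and Cas13d mRNA against no injection (0.00656% higher and 0% lower). Also without a call were szrd1 guides against Cas13d mRNA (0.537% and 0.387%) and dnd1 guides with protein and reporter against protein and reporter (0.387% and 0.0204%). At an unadjusted p under 0.05 there were 19 members (22.1%, against 17.5% of all genes) with the reporter, 3 members (3.49%, against 3.11% of all genes) with dnd guides and 10 members (11.6%, against 13.4% of all genes) with Cas13d mRNA against no injection. There were 25 members (30.1%, against 20.5% of all genes) with szrd1 guides and mRNA and 14 members (16.9%, against 12.5% of all genes) when dnd1 guides joined protein and reporter.

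**Figure D1:**
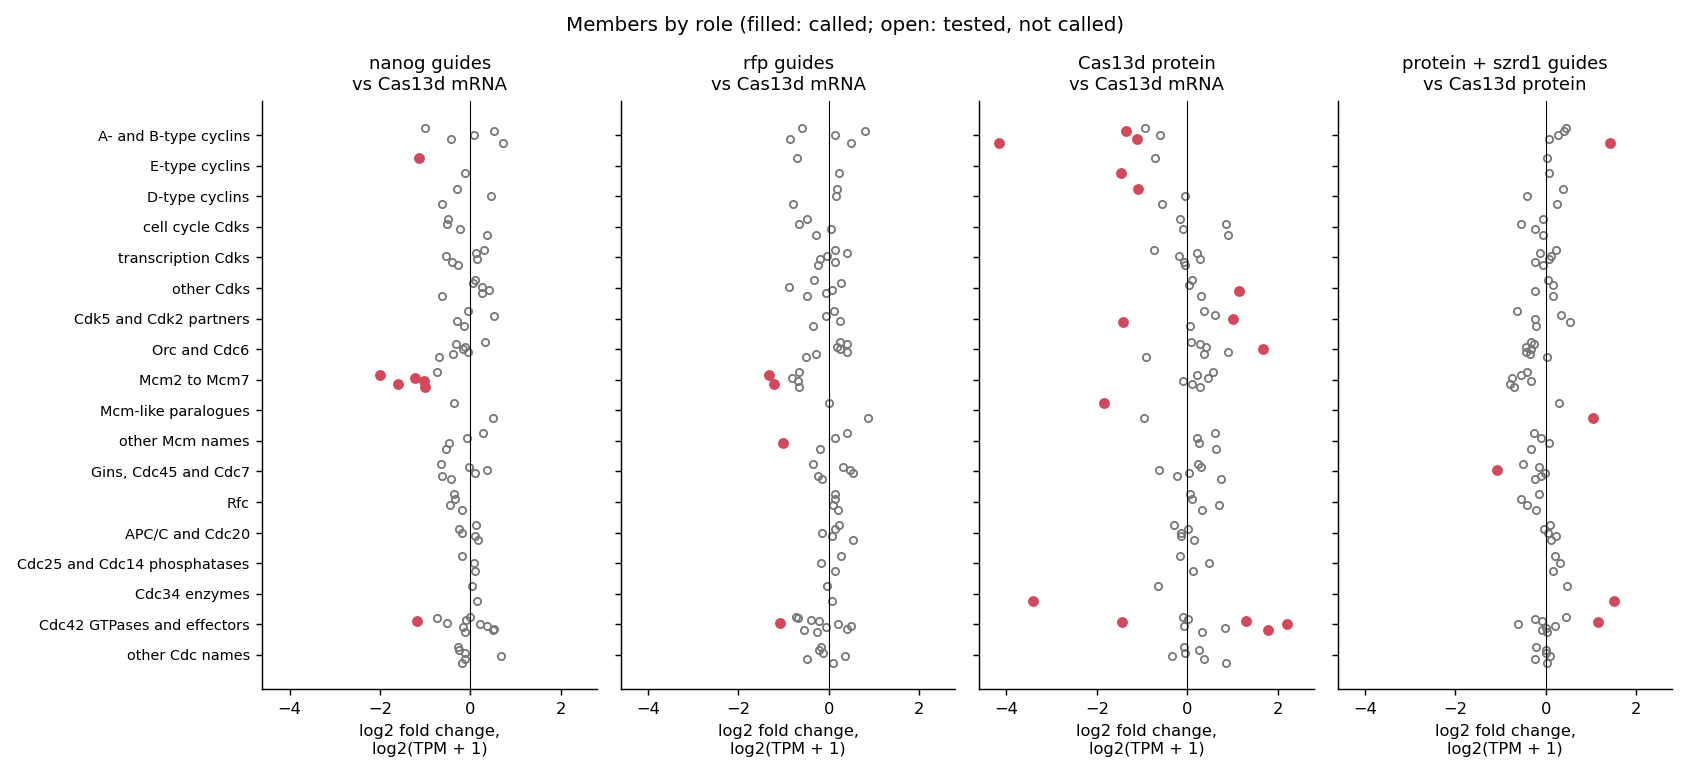
Log2 fold change of every tested member, on the log2(TPM + 1) scale, by role (rows) in 4 comparisons (panels); filled points were called and open points were not. Mcm2 to Mcm7 lie to the left of 0 in the nanog-guide and rfp-guide panels, and ccna1 is the point farthest to the left in the Cas13d protein panel, at -4.18.

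Cyclin A1 ran from 5.37 to 558 TPM over all libraries. Its lowest values were in the second set, where ccna1 had 15.8 and 20.3 TPM with protein and szrd1 guides, 116 and 125 TPM with protein, reporter and dnd1 guides, 67.8 and 65.8 TPM with protein and reporter, and 6.93 and 5.37 TPM with protein alone. With Cas13d mRNA ccna1 had 139 and 126 TPM with szrd1 guides and 132 and 123 TPM without. The protein libraries without guides or reporter were the lowest, those with szrd1 guides next, and both lay apart from all other groups. Between the Cas13d mRNA groups, the libraries with and without szrd1 guides overlapped.

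Against Cas13d mRNA alone, protein alone had much less ccna1: the mean was 6.15 ± 1.1 TPM with protein and 127 ± 5.88 TPM with Cas13d mRNA (SD, n = 2 each; log2 change -4.18, SE 0.132; limma, adjusted p = 6.09e-08). It was the lowest of the 83 members tested, and the other 82 had a median log2 change of 0.09 and ran between -3.41 and 2.21. When the reporter was added to the protein the mean was 66.8 ± 1.43 TPM, well above protein alone (log2 change 3.25, SE 0.132; limma, adjusted p = 2.86e-07). Those protein and reporter libraries were below Cas13d mRNA alone by less than the minimum fold (log2 change -0.92; limma, adjusted p = 0.00455).

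RNAs of an oocyte maternal list, none of them a member, had low sums in the same libraries. Their summed TPM was 171 and 167 with protein and szrd1 guides, 378 and 358 with protein, reporter and dnd1 guides, 275 and 294 with protein and reporter, and 75.3 and 66.0 with protein alone. It was 485 and 481 with Cas13d mRNA and szrd1 guides and 349 and 341 with Cas13d mRNA alone. All 10 list RNAs tested were called lower with protein alone than with Cas13d mRNA (10.8% of all genes were), with a median log2 change of -1.80, against 0.06 over all genes. In that comparison rx3, an eye-field gene, averaged 13.96 TPM with protein and 0.065 TPM with Cas13d mRNA, and myf5, a gene of muscle precursors, averaged 22.4 TPM with protein and 0.87 TPM with Cas13d mRNA. The list of zygotic patterning RNAs that holds both went both ways, with 4 RNAs called higher and 3 lower of 14 (11.1% and 10.8% of all genes). Its log2 changes were above 0 for 6 RNAs and below 0 for 8, with a median of -0.16. The part of these RNAs in the ccna1 result was not tested. The labels give 6 h for the protein libraries too but no morphological stage. Delivery as protein and a difference in stage at collection therefore cannot be told apart where protein alone is set against Cas13d mRNA. Where guides or the reporter were added to the protein, their addition and a difference in stage from protein alone cannot be told apart either.

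The ccna1 difference between libraries with and without szrd1 guides was not the same in the 2 deliveries. With protein and szrd1 guides ccna1 averaged 18.1 ± 3.2 TPM, against 6.15 ± 1.1 TPM with protein alone (log2 change 1.41, SE 0.132; limma, adjusted p = 0.000229). With Cas13d mRNA it averaged 132 TPM with szrd1 guides and 127 TPM without them (log2 change 0.05; limma, adjusted p = 0.859). The first log2 change minus the second was called (log2 change 1.36, SE 0.187; limma, adjusted p = 0.00992). In this test of the difference 1 member was called higher and 1 lower, where 0.775% of all genes were called higher and 0.265% lower. Fitted on only the 4 groups involved, the ccna1 difference had an adjusted p of 0.0664. Of the 10 oocyte maternal RNAs tested, 8 were called higher with szrd1 guides and protein than with protein alone (2.55% of all genes were), with a median log2 change of 1.23, and in the test of the difference btg4, at 1.96, and cth1, at 1.05, were called. The untargeted nanog mRNA was called there too, at 1.23, and the eye-field gene rx3 was called in the other direction, at -2.22 (limma, adjusted p = 0.0136). Of the 14 zygotic patterning RNAs, the list that holds rx3, 0 were called higher and 1 lower in that test. Their log2 changes were above 0 for 7 RNAs and below 0 for 7. The part of all these RNAs in the ccna1 result was not tested. When dnd1 guides joined protein and reporter, ccna1 was higher too, under the minimum fold (log2 change 0.84), and this was the highest value of the 83 members. There 3 of 10 oocyte maternal RNAs were called higher (0.387% of all genes were).

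In the transgenic embryos of the first set, ccna1 had 397 and 558 TPM with nanog guides, 378 and 432 TPM with rfp guides, 533 and 535 TPM with reporter and dnd guides, and 415 and 426 TPM with the reporter. For ccna1 the controls had 326 and 252 TPM with Cas13d mRNA alone and 285 and 319.8 TPM without injection. Every group with guides or a reporter lay above Cas13d mRNA alone and uninjected embryos, which overlapped each other. Nanog guides against Cas13d mRNA alone gave the highest value of the 86 members (log2 change 0.71, SE 0.177; limma, adjusted p = 0.0276), while the others had a median of -0.17. That rank depended on the reference. Against uninjected embryos ccna1 was at 0.64 (limma, adjusted p = 0.0359), below several members, among them cdc42se1 at 1.41 and cdk5rap2 at 1.16. Against rfp guides ccna1 was at 0.22, rank 19 from the highest of the 86. With rfp guides against Cas13d mRNA alone the ccna1 log2 change was 0.495 (limma, adjusted p = 0.0771), and no comparison of the set reached the minimum fold. The summed TPM of the oocyte maternal list was 802 and 1082 with nanog guides and 988 and 1101 with rfp guides. It was 831 and 932 with reporter and dnd guides and 731 and 845 with the reporter. The controls had 681 and 594 with Cas13d mRNA alone and 613 and 665 without injection. The reporter and dnd-guide group had the highest ccna1 mean of the set but not the highest sum.

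Cyclin A2, the form of dividing cells in general, was low in the same protein groups but over a smaller range. Second-set levels of ccna2 were 124 and 131 TPM with protein and szrd1 guides, 291 and 282 TPM with protein, reporter and dnd1 guides, 308 and 309 TPM with protein and reporter, and 119.6 and 124 TPM with protein alone. The ccna2 values with Cas13d mRNA were 319 and 262 TPM with szrd1 guides and 299 and 234 TPM without. Protein alone was the lowest group and protein with szrd1 guides the next, and neither overlapped another group. Protein alone was called lower than Cas13d mRNA (log2 change -1.12, SE 0.117; limma, adjusted p = 3.50e-05), and protein with the reporter was called above protein alone (log2 change 1.33, SE 0.117; limma, adjusted p = 1.51e-05).

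Levels of ccna2 in the first set were 176 and 288 TPM with nanog guides, 175 and 161 TPM with rfp guides, 382 and 325 TPM with reporter and dnd guides, and 413 and 376 TPM with the reporter. The ccna2 values of the controls were 284 and 325 TPM with Cas13d mRNA alone and 255 and 237 TPM without injection. The rfp-guide libraries were the lowest, and no comparison of the set called it. The ratio of ccna1 to ccna2 within a library was 2.26 and 1.94 with nanog guides and 2.16 and 2.69 with rfp guides, 1.15 and 0.774 with Cas13d mRNA alone and 1.12 and 1.35 without injection. In the second set this ratio was 0.0579 and 0.0434 with protein alone and 0.44 and 0.526 with Cas13d mRNA alone. A ratio within a library shows unequal change and does not depend on the library's total.

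**Figure D2:**
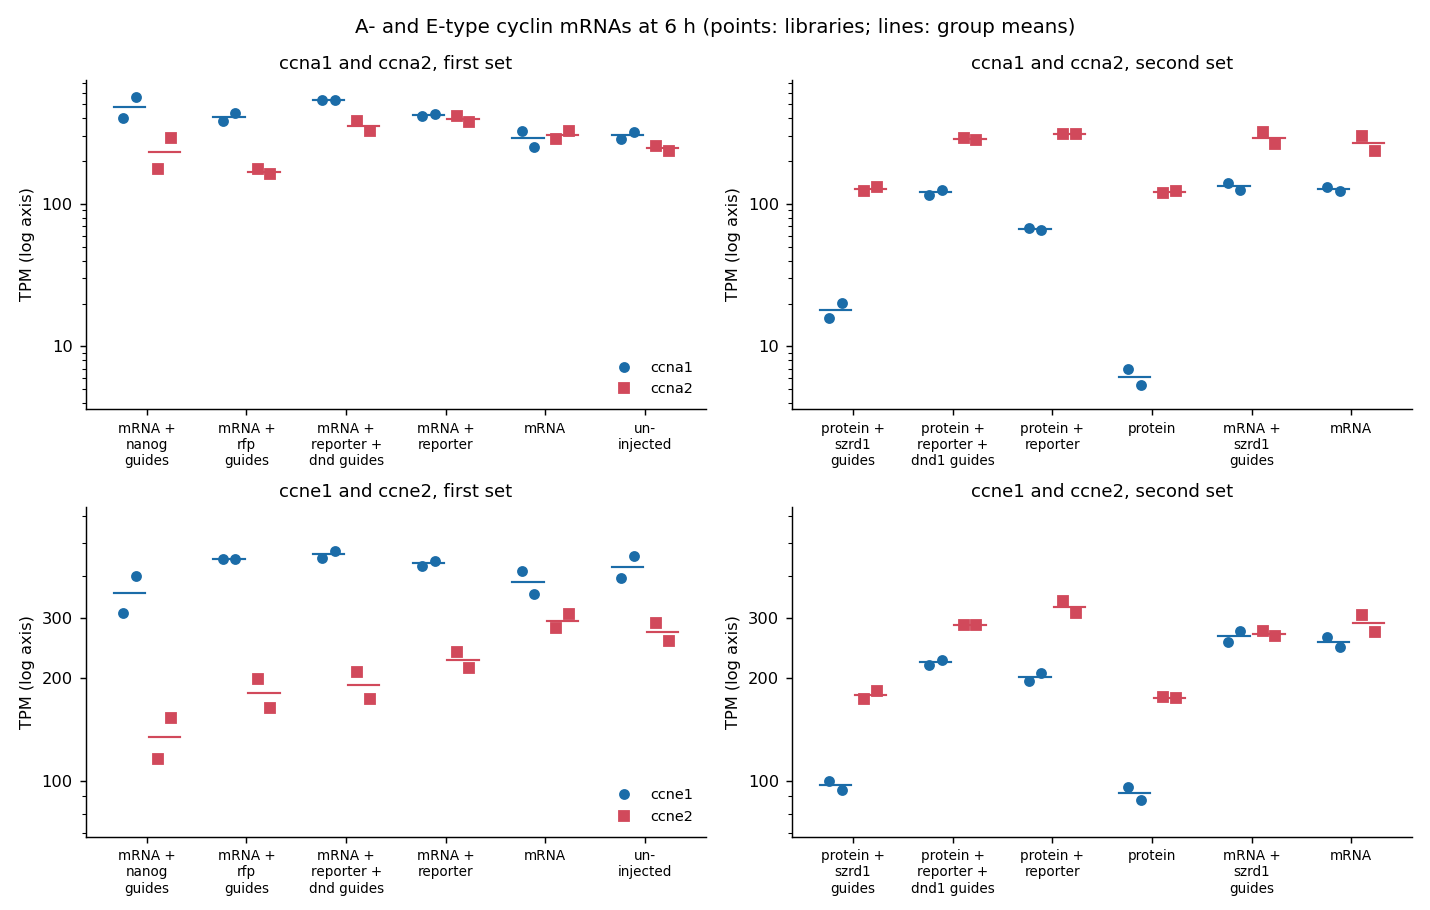
TPM (log axes) of ccna1 and ccna2 and of ccne1 and ccne2 in the 6 groups of the first set and the 6 groups of the second set; points are libraries and lines are group means. In the second set ccna1 lies at 5.37 to 20.3 TPM in the protein groups with szrd1 guides or alone and at 65.8 TPM or more in the other 4 groups.

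The B-type cyclins drive mitosis with Cdk1, and ccnb1 was the most abundant member. First-set levels of ccnb1 were 1453 and 1869 TPM with nanog guides, 1694 and 1694 TPM with rfp guides, 1469.6 and 1628 TPM with reporter and dnd guides, and 1442 and 1460.1 TPM with the reporter. Without guides or reporter ccnb1 was at 1698 and 1417 TPM with Cas13d mRNA and 1678 and 1743 TPM without injection. The nanog-guide libraries overlapped every other group of the set, as did those with Cas13d mRNA alone, and uninjected embryos lay above both reporter groups. Levels of ccnb1 in the second set were 682 and 654 TPM with protein and szrd1 guides, 1102 and 1067 TPM with protein, reporter and dnd1 guides, 1064 and 1077 TPM with protein and reporter, and 537 and 571 TPM with protein alone. For ccnb1 the Cas13d mRNA groups had 815 and 980.4 TPM with szrd1 guides and 846 and 837 TPM without. Protein alone was the lowest group there, and no comparison called ccnb1.

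Its relative ccnb2 had 104 and 108 TPM with protein and szrd1 guides, 213 and 211 TPM with protein, reporter and dnd1 guides, 171 and 164 TPM with protein and reporter, and 76.9 and 82.99 TPM with protein alone. With Cas13d mRNA ccnb2 had 259 and 275 TPM with szrd1 guides and 209 and 203 TPM without. Protein alone was again the lowest group and overlapped no other. Against Cas13d mRNA the means were 79.9 ± 4.31 and 206 ± 4.27 TPM with protein alone and in the controls (log2 change -1.35, SE 0.0633; limma, adjusted p = 3.31e-07). With protein and reporter, ccnb2 and the meiotic and mitotic cyclin ccnb3 were called above protein alone, by 1.06 and 1.198 on the log2 scale. Of the 5 A- and B-type cyclins, 3 were called lower with protein alone than with Cas13d mRNA (10.8% of all genes were), and all 5 had log2 changes below 0, with a median of -1.12.

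With nanog guides ccnb3 had 40.9 and 59.9 TPM, against 91.5 and 109 TPM in the Cas13d mRNA controls. These libraries did not overlap, but the log2 change fell just short of the minimum fold (limma, adjusted p = 0.00648).

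Of the E-type cyclins, which bring cells into S phase, ccne2 was called in the first set and ccne1 in the second. First-set levels of ccne2 were 115 and 153 TPM with nanog guides, 199 and 164 TPM with rfp guides, 209 and 174 TPM with reporter and dnd guides, and 238 and 215 TPM with the reporter. For ccne2 the controls had 280.4 and 309 TPM with Cas13d mRNA alone and 291 and 257 TPM without injection. The nanog-guide libraries were the lowest and overlapped no other group. They were called below Cas13d mRNA alone (log2 change -1.14, SE 0.174; limma, adjusted p = 0.00169) and below uninjected embryos (log2 change -1.04, SE 0.174; limma, adjusted p = 0.00292). Without nanog-guide replicate 1 the log2 change from Cas13d mRNA was -0.94, under the minimum fold.

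For ccne1, first-set levels were 311 and 400 TPM with nanog guides, 449 and 447 TPM with rfp guides, 451 and 473 TPM with reporter and dnd guides, and 428 and 443 TPM with the reporter. The ccne1 values of the controls were 412 and 353 TPM with Cas13d mRNA alone and 395 and 456 TPM without injection. The nanog-guide libraries overlapped both control groups, and no comparison of the set called ccne1. Levels of ccne1 in the second set were 99.7 and 94.2 TPM with protein and szrd1 guides, 219 and 226 TPM with protein, reporter and dnd1 guides, 196 and 208 TPM with protein and reporter, and 95.5 and 87.9 TPM with protein alone. The ccne1 values with Cas13d mRNA were 255 and 276 TPM with szrd1 guides and 264 and 247 TPM without. Protein alone and protein with szrd1 guides overlapped each other and were the lowest. Protein alone was called below Cas13d mRNA (log2 change -1.47, SE 0.0727; limma, adjusted p = 4.16e-07), while ccne2, at 176 and 175 TPM with protein alone and 307 and 273 TPM in the Cas13d mRNA controls, did not reach the minimum fold (log2 change -0.72; limma, adjusted p = 2.36e-05).

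Among D-type cyclins, which answer growth signals, ccnd1 was the most abundant. First-set levels of ccnd1 were 364 and 597 TPM with nanog guides, 427 and 403 TPM with rfp guides, 733 and 566 TPM with reporter and dnd guides, and 849 and 695 TPM with the reporter. Without guides or reporter ccnd1 was at 676 and 764 TPM with Cas13d mRNA and 562 and 475 TPM without injection. The rfp-guide group was the lowest of the set and overlapped the nanog-guide group. Levels of ccnd1 in the second set were 569 and 534 TPM with protein and szrd1 guides, 609.8 and 632 TPM with protein, reporter and dnd1 guides, 645 and 628 TPM with protein and reporter, and 451 and 474 TPM with protein alone. For ccnd1 the Cas13d mRNA groups had 678 and 540.3 TPM with szrd1 guides and 754 and 622 TPM without. The lowest group of the second set was protein alone, which overlapped no other. No comparison called ccnd1. Its relative ccnd2a ran at 0.76 to 4.49 TPM over all libraries and was not called.

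The D-type cyclin ccnd3 had 1.12 and 0.93 TPM with protein alone and 3 and 3.7 TPM in the Cas13d mRNA controls. The groups did not overlap, and the fall was called (log2 change -1.1, SE 0.198; limma, adjusted p = 0.00107).

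None of the 4 cell cycle Cdks (cdk1, cdk2, cdk4 and cdk6) was called in any of the 12 comparisons. The mitotic kinase cdk1 had 171 and 179 TPM with protein alone and 101 and 86.7 TPM in the Cas13d mRNA controls. These libraries did not overlap, and the sign was opposite to that of every tested A-, B- and E-type cyclin, but the log2 change of 0.897 was under the minimum (limma, adjusted p = 1.95e-05). Of the 7 Cdks of transcription, such as Cdk7 of the general factor TFIIH, 6 were tested and none was called.

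The most abundant Cdk was cdk9, the kinase of the elongation factor P-TEFb. First-set levels of cdk9 were 227 and 321 TPM with nanog guides, 237 and 241 TPM with rfp guides, 313 and 304 TPM with reporter and dnd guides, and 282 and 285 TPM with the reporter. For cdk9 the controls had 222 and 215 TPM with Cas13d mRNA alone and 203 and 189.8 TPM without injection. Uninjected embryos were the lowest group of the set and overlapped no other. Levels of cdk9 in the second set were 165 and 150.1 TPM with protein and szrd1 guides, 221 and 220.2 TPM with protein, reporter and dnd1 guides, 187 and 178 TPM with protein and reporter, and 135 and 137 TPM with protein alone. With Cas13d mRNA cdk9 had 277 and 255 TPM with szrd1 guides and 249.9 and 206 TPM without. Protein alone was the lowest group of the second set and overlapped no other.

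Of the 8 other Cdks, not all of them tested, cdk16 was called in the second set and cdk17 in the first. Both are of the PCTAIRE kind. Over all genes tested 30.5% were called in at least 1 of the 12 comparisons. The kinase cdk16 had 8.41 and 10.4 TPM with protein and szrd1 guides, 5.91 and 5.51 TPM with protein, reporter and dnd1 guides, 4.07 and 4.69 TPM with protein and reporter, and 12.1 and 10.3 TPM with protein alone. The cdk16 values with Cas13d mRNA were 6.88 and 8.23 TPM with szrd1 guides and 4.95 and 4.07 TPM without. Protein alone overlapped with protein and szrd1 guides and with no other group. It was called above Cas13d mRNA (log2 change 1.15, SE 0.162; limma, adjusted p = 0.000238), and protein with reporter was called below protein alone (log2 change -1.18, SE 0.162; limma, adjusted p = 0.000251). First-set levels of cdk17 were 4.12 and 7.02 TPM with nanog guides, 1.32 and 2.68 TPM with rfp guides, 10.4 and 8.6 TPM with reporter and dnd guides, and 11.1 and 10.6 TPM with the reporter. The cdk17 values of the controls were 3.37 and 5.56 TPM with Cas13d mRNA alone and 3.11 and 3.14 TPM without injection. The nanog-guide and rfp-guide libraries did not overlap, and nanog guides were called above rfp guides (log2 change 1.13, SE 0.289; limma, adjusted p = 0.0377). The log2 change was 0.81 without nanog-guide replicate 2 and 0.8 without rfp-guide replicate 1, and neither was called.

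Proteins named for binding Cdk5 or Cdk2 made up 8 members, several with other functions. The Cdk5 activator cdk5r1a was listed at 0 in both libraries with protein alone and had 2.55 and 1.05 TPM in the Cas13d mRNA controls. It was called lower (limma, adjusted p = 0.00592), and no fold is given against values listed at 0. The tRNA-modifying enzyme cdk5rap1 had 4.18 and 2.94 TPM with protein alone and 1.18 and 1.33 TPM in the Cas13d mRNA controls, without overlap, and just passed the minimum fold (limma, adjusted p = 0.00216).

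For cdk5rap3, an adaptor in protein ufmylation, the effect of szrd1 guides differed between the deliveries in the fit of the whole set. Fitted on only the 4 groups involved, that difference was not called. The cdk5rap3 values were 4.84 and 6.15 TPM with protein and szrd1 guides and 8.06 and 10.2 TPM with protein alone. With Cas13d mRNA it had 11.7 and 10.5 TPM with szrd1 guides and 6.8 and 6.8 TPM without. The guide libraries were below their controls with protein and above them with mRNA. A difference in stage at collection cannot be told apart from delivery or the added guides here. The effect with protein minus that with mRNA was called (log2 change -1.27, SE 0.212; limma, adjusted p = 0.0221), and was lost in 3 of 8 fits that left out 1 library: adjusted p was 0.0705 without protein and szrd1 replicate 1, 0.101 without protein replicate 2 and 0.0581 without Cas13d mRNA replicate 1.

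The subunits of the replicative helicase ring were the family with most calls in the first set. With nanog guides all 6 of Mcm2 to Mcm7 had log2 changes below 0 against Cas13d mRNA, with a median of -1.12, and 5 were called; over all genes the median was -0.05 and 2.12% were called lower. With rfp guides all 6 were again below 0, with a median of -0.75, and 2 were called (3.83% of all genes). The same Cas13d mRNA libraries serve as controls in both. Set against uninjected embryos, these controls had log2 changes above 0 for all 6, with a median of 0.33 and none called, and for mcm5 and mcm7 the libraries overlapped.

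The largest of these changes was that of mcm6. It had 30.4 and 48.5 TPM with nanog guides, 70.3 and 53.7 TPM with rfp guides, 135 and 93.1 TPM with reporter and dnd guides, and 173 and 130.1 TPM with the reporter. Without guides or reporter mcm6 was at 132 and 184 TPM with Cas13d mRNA and 108 and 90.8 TPM without injection. Both guide groups without a reporter were below every other library of the set and did not overlap each other. Nanog guides gave a fall against Cas13d mRNA (log2 change -1.99, SE 0.26; limma, adjusted p = 0.000467) and against uninjected embryos (log2 change -1.34, SE 0.26; limma, adjusted p = 0.0067). Rfp guides gave a fall against Cas13d mRNA (log2 change -1.33, SE 0.26; limma, adjusted p = 0.0112) but were not called against uninjected embryos (log2 change -0.68; limma, adjusted p = 0.151). The rfp-guide call was lost without Cas13d mRNA replicate 2, with an adjusted p of 0.147, and without rfp-guide replicate 2, with 0.0888.

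For mcm3 the libraries had 50.4 and 85.6 TPM with nanog guides, 93.3 and 81.5 TPM with rfp guides, 202 and 125 TPM with reporter and dnd guides, and 247 and 188 TPM with the reporter. For mcm3 the controls had 171 and 240.1 TPM with Cas13d mRNA alone and 144 and 119.5 TPM without injection. The nanog-guide and rfp-guide groups overlapped each other and no other group. Both were called below Cas13d mRNA, nanog guides at -1.61 (limma, adjusted p = 0.00359) and rfp guides at -1.21 (limma, adjusted p = 0.018). Against uninjected embryos neither was called, at -0.98 and -0.58. Without Cas13d mRNA replicate 2 the adjusted p were 0.0526 with nanog guides and 0.199 with rfp guides, and without rfp-guide replicate 2 the rfp-guide value was 0.109.

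The subunit mcm5 had 54.5 and 84.6 TPM with nanog guides, 101 and 81.99 TPM with rfp guides, 135 and 107 TPM with reporter and dnd guides, and 174 and 141 TPM with the reporter. The mcm5 values of the controls were 147 and 176 TPM with Cas13d mRNA alone and 149 and 125 TPM without injection. The nanog-guide libraries overlapped only those with rfp guides, and were called below Cas13d mRNA (log2 change -1.23, SE 0.219; limma, adjusted p = 0.00476). The call was lost without nanog-guide replicate 1, at -0.92, and without Cas13d mRNA replicate 2, with an adjusted p of 0.0653. Also called there were mcm4 at -1.02 and mcm2 at -1.01 on the log2 scale.

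The most abundant subunit, mcm7, was not called. It had 145 and 234 TPM with nanog guides, 203 and 185 TPM with rfp guides, 394 and 264 TPM with reporter and dnd guides, and 404 and 327 TPM with the reporter. Without guides or reporter mcm7 was at 263 and 354 TPM with Cas13d mRNA and 269 and 214 TPM without injection. The nanog-guide libraries overlapped those with rfp guides and without injection, and lay below Cas13d mRNA alone with a log2 change of -0.73 (limma, adjusted p = 0.0888). With uninjected embryos in place of Cas13d mRNA, members called with nanog guides were 3 higher and 2 lower (3.15% and 1.78% of all genes), and mcm6 and ccne2 were the 2 lower ones. With rfp guides 0 were called higher and 0 lower (2.12% and 0.702% of all genes).

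Single libraries weigh on these calls. No share of all genes is given beside the counts in this paragraph, so they do not set the members against all genes. Without Cas13d mRNA replicate 2, which had the higher value of each of the 6 subunits, 2 members were called with nanog guides, mcm6 and ccne2, and 0 with rfp guides. Leaving out rfp-guide replicate 2 also gave 0 with rfp guides. The mcm6 log2 change with nanog guides was -1.66 without nanog-guide replicate 1 and -2.32 without nanog-guide replicate 2. After the TPM were rescaled without the genes above 10000 TPM, 3 were called with nanog guides, all of them ring subunits.

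**Figure D3:**
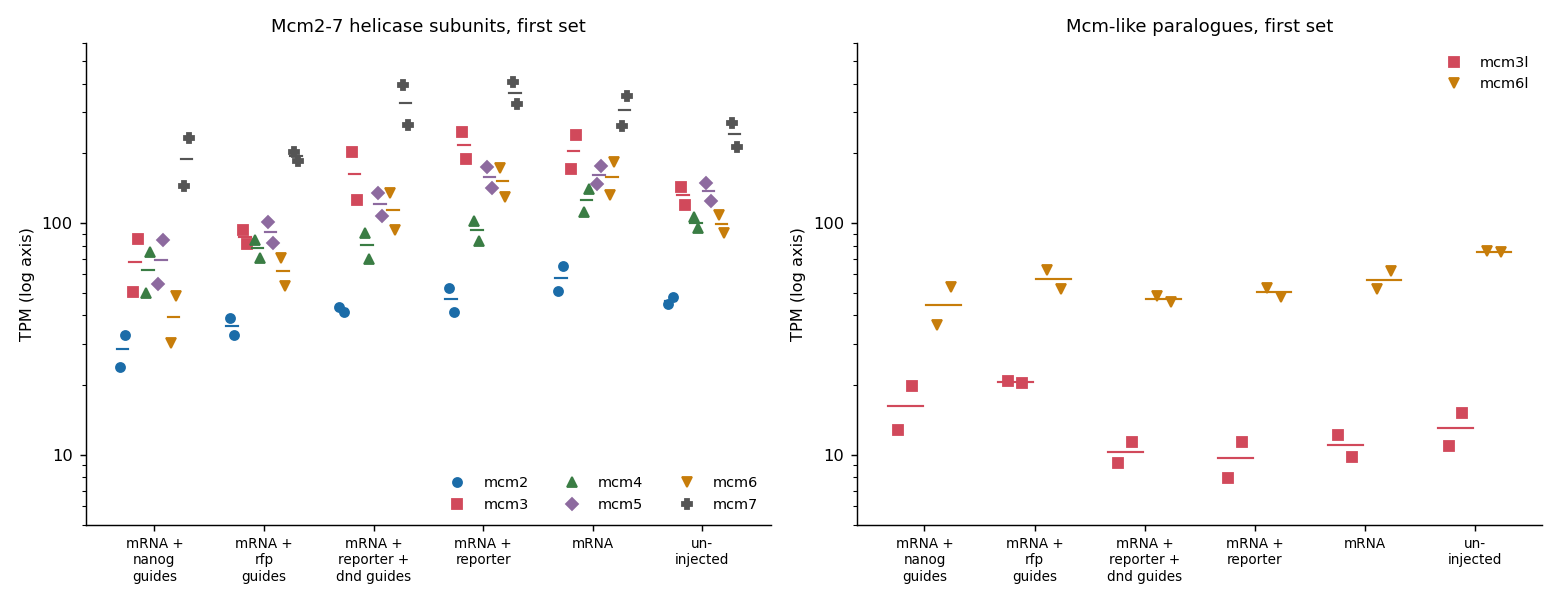
TPM (log axes) of Mcm2 to Mcm7 (left) and of the Mcm-like paralogues mcm3l and mcm6l (right) in the 6 groups of the first set; points are libraries and lines are group means. The nanog-guide and rfp-guide groups have the lowest means of each of the 6 ring subunits, and mcm3l has its highest means there.

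The paralogues mcm3l and mcm6l, named as like Mcm3 and Mcm6, were not called in the first set. With nanog guides mcm6l had 36.2 and 52.7 TPM, against 51.9 and 62.2 TPM in the Cas13d mRNA controls, and the groups overlapped. For mcm3l there were 12.8 and 19.8 TPM with nanog guides and 20.8 and 20.5 TPM with rfp guides, against 12.2 and 9.81 TPM in those controls, which lay below both. The ratio of mcm6l to mcm6 was 1.19 and 1.09 with nanog guides and 0.894 and 0.971 with rfp guides, 0.393 and 0.339 with Cas13d mRNA alone and 0.701 and 0.823 without injection. The ratios of these guide groups lie above all others of the set. How the authors' counting shared reads between such near copies is not known.

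In the second set both mcm6l and mcm3l were called. The values of mcm6l were 15.6 and 11.2 TPM with protein and szrd1 guides and 41.2 and 38.2 TPM with protein, reporter and dnd1 guides. They were 45.6 and 49.7 TPM with protein and reporter and 10.1 and 11.1 TPM with protein alone. For mcm6l the Cas13d mRNA groups had 47.9 and 46.03 TPM with szrd1 guides and 42.4 and 38.4 TPM without. The lowest group was protein alone and the next was protein with szrd1 guides, the low groups of ccna1 also. Protein alone was called below Cas13d mRNA (log2 change -1.84, SE 0.139; limma, adjusted p = 4.78e-06), while mcm6 itself averaged 143 TPM with protein alone and 123 TPM in the controls and was not called. Protein with reporter was called above protein alone (log2 change 2.07, SE 0.139; limma, adjusted p = 3.13e-06). The sums of the oocyte maternal RNAs given beside ccna1 stand beside this result too, and their part in it was not tested.

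The second set's mcm3l had 3.8 and 3.36 TPM with protein and szrd1 guides, 3.32 and 2.68 TPM with protein, reporter and dnd1 guides, 3.41 and 4.01 TPM with protein and reporter, and 1.11 and 1.37 TPM with protein alone. With Cas13d mRNA mcm3l had 4.51 and 4.98 TPM with szrd1 guides and 3.42 and 3.34 TPM without. The lowest group was protein alone, and mcm3l was called above it with szrd1 guides (log2 change 1.03, SE 0.159; limma, adjusted p = 0.00333) and with the reporter (log2 change 1.07, SE 0.159; limma, adjusted p = 0.000406). The szrd1 call was lost without protein and szrd1-guide replicate 1, at 0.96, and without protein replicate 1, at 0.95.

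With szrd1 guides no ring subunit reached the minimum fold. With Cas13d mRNA mcm6 had 82.6 and 61.4 TPM with the guides, against 126 and 120.3 TPM without them (log2 change -0.78; limma, adjusted p = 0.023), and mcm3 and mcm5 had adjusted p under 0.05 as well. With protein all 6 subunits had log2 changes below 0, with a median of -0.63 against 0.01 over all genes. There mcm3 had 101 and 131 TPM with szrd1 guides and 187 and 212 TPM without (log2 change -0.79; limma, adjusted p = 0.0065).

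Of the origin recognition complex and Cdc6, which load the ring, orc3 and cdc6 were called, both in the second set. Calls in at least 1 of the 12 comparisons were made for 30.5% of all genes tested. The Orc subunit orc3 had 30.7 and 27.9 TPM with protein and szrd1 guides, 15.8 and 17.3 TPM with protein, reporter and dnd1 guides, 16.9 and 16.2 TPM with protein and reporter, and 36.5 and 37.4 TPM with protein alone. The orc3 values with Cas13d mRNA were 8.56 and 11.4 TPM with szrd1 guides and 12.2 and 9.69 TPM without. All protein libraries were above the Cas13d mRNA libraries, and protein alone was the highest group. Protein alone was called above Cas13d mRNA (log2 change 1.67, SE 0.146; limma, adjusted p = 1.16e-05), and protein with reporter below protein alone (log2 change -1.11, SE 0.146; limma, adjusted p = 0.000189).

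The loader cdc6 was the most abundant member with a Cdc name. Levels of cdc6 in the first set were 188 and 304 TPM with nanog guides, 277 and 271 TPM with rfp guides, 581 and 436 TPM with reporter and dnd guides, and 544 and 485 TPM with the reporter. For cdc6 the controls had 365 and 415 TPM with Cas13d mRNA alone and 304 and 259 TPM without injection. The nanog-guide group was the lowest of the set and overlapped the rfp-guide and uninjected groups. Second-set levels of cdc6 were 179 and 204 TPM with protein and szrd1 guides, 391 and 388 TPM with protein, reporter and dnd1 guides, 387 and 378 TPM with protein and reporter, and 182 and 194 TPM with protein alone. For cdc6 the Cas13d mRNA groups had 432 and 336 TPM with szrd1 guides and 389 and 326 TPM without. Protein alone and protein with szrd1 guides overlapped and were the low groups of the second. Protein with reporter was called above protein alone (log2 change 1.02, SE 0.121; limma, adjusted p = 0.000103).

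Among the Orc subunits orc6 was the most abundant. Levels of orc6 in the first set were 136 and 199 TPM with nanog guides, 145 and 166 TPM with rfp guides, 168 and 188 TPM with reporter and dnd guides, and 176 and 176 TPM with the reporter. The orc6 values of the controls were 144 and 119.9 TPM with Cas13d mRNA alone and 134 and 139 TPM without injection. The nanog-guide libraries overlapped every other group of the set. Second-set levels of orc6 were 78.2 and 68.3 TPM with protein and szrd1 guides, 66.9 and 76.3 TPM with protein, reporter and dnd1 guides, 74.6 and 68.2 TPM with protein and reporter, and 88.4 and 95.7 TPM with protein alone. With Cas13d mRNA orc6 had 71.03 and 83.5 TPM with szrd1 guides and 81.7 and 92.6 TPM without. Protein alone overlapped its Cas13d mRNA controls, and orc6 was not called.

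Outside the ring 4 members carry Mcm names: Mcm8 and Mcm9 act in recombination, Mcm10 in helicase activation and Mcm3ap in mRNA export. Of these mcm3ap was called lower with rfp guides, as were 3.83% of all genes. It had 18.8 and 33.1 TPM with nanog guides, 17.9 and 15.8 TPM with rfp guides, 48.8 and 32.5 TPM with reporter and dnd guides, and 49.02 and 36.97 TPM with the reporter. Without guides or reporter mcm3ap was at 28.95 and 42.5 TPM with Cas13d mRNA and 27.7 and 25.4 TPM without injection. The rfp-guide libraries were the lowest and overlapped no other group. They were called below Cas13d mRNA (log2 change -1.02, SE 0.277; limma, adjusted p = 0.0323) but not below uninjected embryos (log2 change -0.62; limma, adjusted p = 0.211), and the call was lost in 3 of 4 fits that left out 1 library, with -0.75 without Cas13d mRNA replicate 2. Without rfp-guide replicate 1 or 2 its adjusted p was 0.0828 or 0.166.

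The Gins complex, Cdc45 and the kinase Cdc7 turn the loaded ring into an active helicase. Among these 6 genes, where 30.5% of all genes tested were called in at least 1 of the 12 comparisons, gins2 was called. It had 4.91 and 3.18 TPM with protein and szrd1 guides, 8.9 and 7.76 TPM with protein, reporter and dnd1 guides, 5.83 and 8.16 TPM with protein and reporter, and 8.79 and 10.1 TPM with protein alone. The gins2 values with Cas13d mRNA were 9.25 and 8.96 TPM with szrd1 guides and 15.05 and 15.04 TPM without. The Cas13d mRNA controls were the highest and the protein and szrd1-guide libraries the lowest. Protein with szrd1 guides was called below protein alone (log2 change -1.07, SE 0.192; limma, adjusted p = 0.00704), and protein with reporter below Cas13d mRNA (log2 change -1.02, SE 0.192; limma, adjusted p = 0.0115). Fitted on only the groups compared, the adjusted p were 0.0564 and 0.0556. The szrd1 call was also lost without protein and szrd1-guide replicate 2, at -0.82, or protein replicate 2, at -0.98. The reporter call was lost without protein and reporter replicate 1, at -0.81, or Cas13d mRNA replicate 2, with an adjusted p of 0.0527.

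The most abundant Gins subunit was gins3. Levels of gins3 in the first set were 86.5 and 110.0 TPM with nanog guides, 116 and 132 TPM with rfp guides, 90.1 and 95.7 TPM with reporter and dnd guides, and 102 and 93.2 TPM with the reporter. For gins3 the controls had 100.3 and 99.5 TPM with Cas13d mRNA alone and 109 and 108 TPM without injection. The rfp-guide group was the highest of the set and overlapped no other. Second-set levels of gins3 were 46.96 and 54.4 TPM with protein and szrd1 guides, 57.9 and 65.4 TPM with protein, reporter and dnd1 guides, 60.5 and 61.6 TPM with protein and reporter, and 58.6 and 53.9 TPM with protein alone. For gins3 the Cas13d mRNA groups had 42.4 and 42.8 TPM with szrd1 guides and 41.5 and 49.7 TPM without. Protein alone lay above its Cas13d mRNA controls without overlap, and gins3 was not called.

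Among the 4 clamp loader subunits rfc4 was the most abundant. Levels of rfc4 in the first set were 122 and 129 TPM with nanog guides, 186 and 163 TPM with rfp guides, 126 and 131 TPM with reporter and dnd guides, and 139.7 and 132 TPM with the reporter. The rfc4 values of the controls were 152 and 168 TPM with Cas13d mRNA alone and 157 and 173 TPM without injection. The nanog-guide libraries lay below those with Cas13d mRNA alone and without injection. Second-set levels of rfc4 were 81.9 and 89.3 TPM with protein and szrd1 guides, 85.96 and 88.6 TPM with protein, reporter and dnd1 guides, 94.9 and 98.5 TPM with protein and reporter, and 120.4 and 132 TPM with protein alone. With Cas13d mRNA rfc4 had 105 and 112 TPM with szrd1 guides and 108 and 127 TPM without. Protein alone overlapped its Cas13d mRNA controls. Against Cas13d mRNA all 4 Rfc genes had log2 changes below 0 with nanog guides, with a median of -0.36, and all 4 above 0 with rfp guides, with a median of 0.13. The median over all genes was -0.05 in both. Against uninjected embryos all 4 were again below 0 with nanog guides. With rfp guides rfc3 (-0.16) and rfc5 (-0.13) were then below 0 and rfc2 (0.02) and rfc4 (0.08) above. None was called in any of the 12 comparisons.

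Members named Cdc after yeast division mutants include genes of protein turnover. Cdc34 is a ubiquitin-conjugating enzyme that works with the SCF ligase, and cdc34a had, after ccna1, the lowest log2 change with protein alone. It had 15.3 and 25.9 TPM with protein and szrd1 guides, 99.03 and 89.8 TPM with protein, reporter and dnd1 guides, 76.5 and 84.7 TPM with protein and reporter, and 7.42 and 5.5 TPM with protein alone. The cdc34a values with Cas13d mRNA were 117 and 99.5 TPM with szrd1 guides and 84.6 and 70.7 TPM without. Protein alone and protein with szrd1 guides were the low groups, and they overlapped neither each other nor any other group.

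Protein alone was called below Cas13d mRNA for cdc34a (log2 change -3.41, SE 0.216; limma, adjusted p = 1.62e-06). Protein with szrd1 guides (log2 change 1.501, SE 0.216; limma, adjusted p = 0.00228) and protein with reporter (log2 change 3.46, SE 0.216; limma, adjusted p = 2.19e-06) were both called above protein alone. Its paralogue cdc34b had 84.9 and 85.9 TPM with protein alone and 134 and 136 TPM in the Cas13d mRNA controls, under the minimum fold (log2 change -0.65; limma, adjusted p = 2.81e-05). The ratio of cdc34a to cdc34b was 0.0874 and 0.064 with protein alone and 0.633 and 0.52 with Cas13d mRNA alone. The first set's cdc34a ran at 135 to 195 TPM and was not called.

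**Figure D4:**
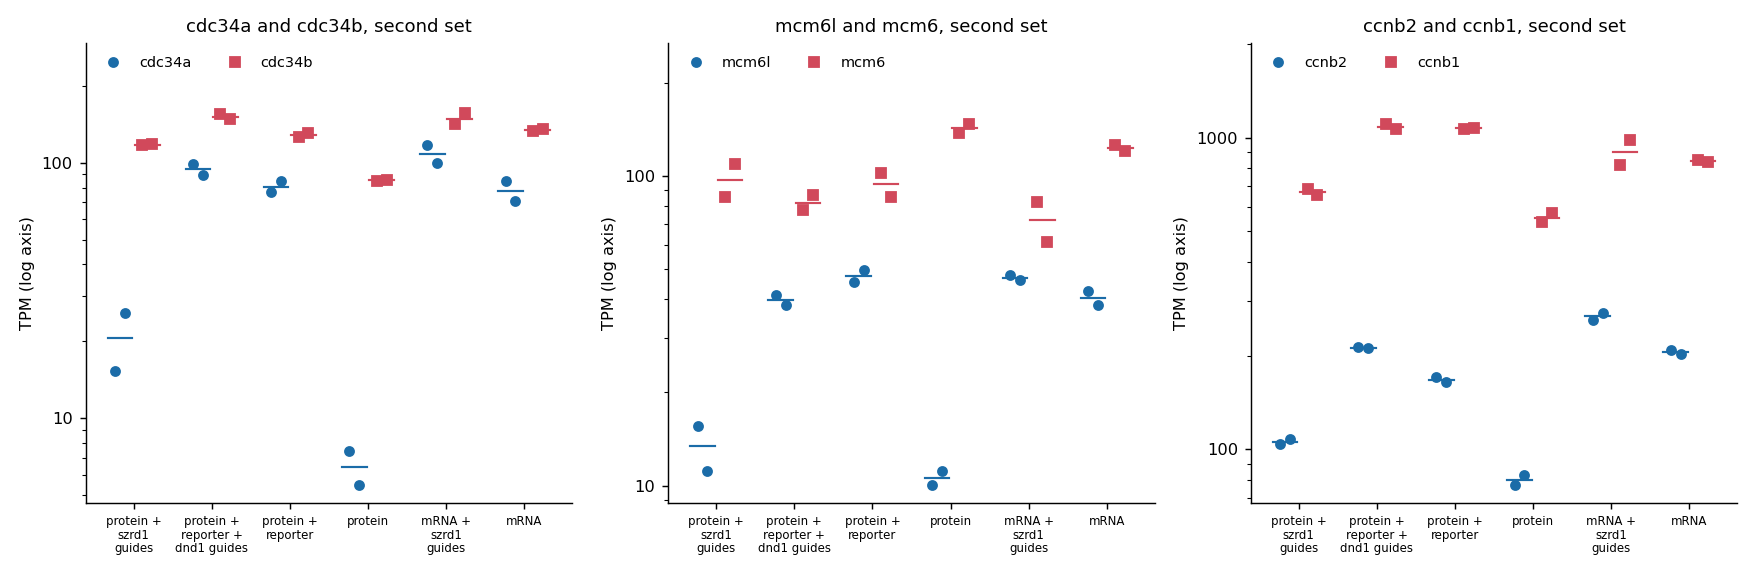
TPM (log axes) of the pairs cdc34a and cdc34b, mcm6l and mcm6, and ccnb2 and ccnb1 in the 6 groups of the second set; points are libraries and lines are group means. The first gene of each pair has its lowest mean with protein alone, at 6.46 TPM for cdc34a, 10.6 TPM for mcm6l and 79.9 TPM for ccnb2, while mcm6 has its highest mean there.

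The anaphase-promoting complex and its activator Cdc20 degrade cyclins at the end of mitosis. Its 5 genes gave no call. The most abundant, cdc20, had 239 and 260.1 TPM with protein and szrd1 guides, 394 and 367 TPM with protein, reporter and dnd1 guides, 399 and 390.0 TPM with protein and reporter, and 205 and 220.2 TPM with protein alone. For cdc20 the Cas13d mRNA groups had 236 and 183 TPM with szrd1 guides and 256 and 212 TPM without. The libraries with protein alone and with Cas13d mRNA alone overlapped, and the high groups were those with protein and reporter, with or without dnd1 guides. The first set's cdc20 ran at 282 to 411 TPM.

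Cdc25 phosphatases activate Cdks, and Cdc14 phosphatases act late in mitosis. Of their 5 genes 3 were tested and none was called. The most abundant, cdc25b, ran at 98.3 to 198 TPM over all libraries, and cdc25d was under the minimum mean. Of the Cdc14 genes, cdc14ab ran at 25.02 to 43.1 TPM and cdc14b at 68.5 to 152 TPM, and cdc14b was the more abundant in each library.

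The 15 genes named for Cdc42, a small GTPase of cell polarity and the actin skeleton, held the highest log2 change of the 83 members with protein alone. The effector cdc42ep4a had 15.2 and 19.2 TPM with protein and szrd1 guides, 8.38 and 7.53 TPM with protein, reporter and dnd1 guides, 8.43 and 7.57 TPM with protein and reporter, and 24.6 and 29.1 TPM with protein alone. With Cas13d mRNA cdc42ep4a had 6.23 and 3.78 TPM with szrd1 guides and 5.02 and 4.99 TPM without. Protein alone was the highest group and overlapped no other. It was called above Cas13d mRNA (log2 change 2.21, SE 0.197; limma, adjusted p = 1.32e-05), and protein with reporter below protein alone (log2 change -1.63, SE 0.197; limma, adjusted p = 0.000114). The first set's rfp-guide libraries, at 1.66 and 0.72 TPM, were called below the Cas13d mRNA controls, at 3.59 and 3.43 TPM (limma, adjusted p = 0.0449). The call was lost when any of these 4 libraries was left out. The log2 changes then ran between -1.39 without rfp-guide replicate 1 and -0.76 without rfp-guide replicate 2. Against uninjected embryos the rfp-guide libraries were not called for cdc42ep4a (limma, log2 change -0.56, adjusted p = 0.33).

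The effector cdc42ep4b had the opposite sign. Levels of cdc42ep4b in the second set were 50.1 and 50.6 TPM with protein and szrd1 guides, 77.3 and 73.6 TPM with protein, reporter and dnd1 guides, 59.4 and 57.5 TPM with protein and reporter, and 22.8 and 21.4 TPM with protein alone. The cdc42ep4b values with Cas13d mRNA were 80.7 and 72.7 TPM with szrd1 guides and 64.8 and 58.96 TPM without. Protein alone was the lowest group and overlapped no other. It was called below Cas13d mRNA (log2 change -1.44, SE 0.0821; limma, adjusted p = 8.38e-07), and protein with szrd1 guides (log2 change 1.15, SE 0.0821; limma, adjusted p = 4.96e-05) and with reporter (log2 change 1.36, SE 0.0821; limma, adjusted p = 1.84e-06) were called above it. In the first set cdc42ep4b was not called with nanog guides against uninjected embryos (limma, log2 change -0.66, adjusted p = 0.0978). Against Cas13d mRNA it was called lower (limma, log2 change -1.17, SE 0.245, adjusted p = 0.0122). The values were 22.8 and 45.4 TPM with nanog guides and 73.6 and 74.3 TPM in the Cas13d mRNA controls, without overlap. That call was lost in 3 of 4 fits that left out 1 library: the log2 change was -0.69 without nanog-guide replicate 1, and the adjusted p was 0.0522 or 0.0858 without Cas13d mRNA replicate 1 or 2.

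The kinase cdc42bpaa had 6.83 and 7.55 TPM with protein and szrd1 guides, 2.98 and 3.97 TPM with protein, reporter and dnd1 guides, 3.65 and 3.61 TPM with protein and reporter, and 7.85 and 7.61 TPM with protein alone. For cdc42bpaa the Cas13d mRNA groups had 2.83 and 2.13 TPM with szrd1 guides and 2.08 and 1.12 TPM without. The highest group was protein alone, which was called above Cas13d mRNA (log2 change 1.77, SE 0.205; limma, adjusted p = 6.62e-05). The effector cdc42ep5 had 23.2 and 26.4 TPM with protein and szrd1 guides, 14.7 and 14.3 TPM with protein, reporter and dnd1 guides, 11.97 and 13.02 TPM with protein and reporter, and 27.99 and 24.8 TPM with protein alone. With Cas13d mRNA cdc42ep5 had 11.5 and 6.32 TPM with szrd1 guides and 14.7 and 6.98 TPM without. Protein alone was called above Cas13d mRNA (log2 change 1.29, SE 0.304; limma, adjusted p = 0.00518), with 0.798 and no call without Cas13d mRNA replicate 2. Protein with reporter was called below protein alone (log2 change -1.02, SE 0.304; limma, adjusted p = 0.0186), a call lost when any of these 4 libraries was left out. The GTPase itself, cdc42, ran at 75.8 to 128 TPM over all libraries and was not called.

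The other 6 Cdc names belong to genes of splicing (cdc5l, cdc40), transcription elongation (cdc73), protein folding (cdc37, cdc37l1) and translation initiation (cdc123). None was called in any of the 12 comparisons. Against uninjected embryos cdc37l1, a relative of the Hsp90 co-chaperone Cdc37, was called higher with nanog guides, with cdc42se1 and cdk5rap2.

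A list of 56 other genes of the cell cycle and replication had 57 rows, all tested in both sets. With nanog guides 1 was called higher and 0 lower: cdkn1a, the Cdk inhibitor p21, averaged 20.98 TPM with nanog guides and 5.88 TPM in the Cas13d mRNA controls. The p53 response list that also holds it had 6 of 11 tested genes called higher and 0 lower there (1.95% and 2.12% of all genes). With rfp guides 3 of these 11 were called higher and 0 lower (2.16% and 3.83%). Of 12 oocyte maternal RNAs 4 were called higher with nanog guides and 5 with rfp guides, and 0 lower. Of 12 zygotic patterning RNAs 5 were called lower with nanog guides and 1 with rfp guides, and 0 higher. The part of these lists in the Mcm result was not tested. Of the 57 rows 0 were called higher with rfp guides and 2 lower, the pocket protein gene rbl1 at -1.29 and the transcription factor gene e2f1 at -1.36 on the log2 scale. Between nanog and rfp guides 1 was called higher, cdkn1a again, and 0 lower.

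With protein alone over Cas13d mRNA 3 of the 57 were called higher and 1 lower, while 11.1% and 10.8% of all genes were. The leading-strand polymerase gene pole averaged 18.7 TPM with protein alone and 8.19 TPM with Cas13d mRNA alone. The gene fbxo5, for the Emi1 inhibitor of the anaphase-promoting complex, averaged 158 TPM with protein alone and 382 TPM with Cas13d mRNA alone. With protein and reporter over protein alone 5 were called higher, among them rpa3, fbxo5 and cdt1, and 2 lower (8.28% and 9.28% of all genes). In each of the other 7 comparisons limma called 0 of the 57 in either direction.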

How the data were processed

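Per the labels' protocols, RNA was extracted with Trizol, and poly(A)-enriched, stranded libraries were sequenced as single reads of 75 bp. Per the submitters' processing notes, bcl2fastq 2.18, STAR 2.6.1c, RSEM and danRer11 were used; how strand was counted, the annotation and any filter are not given in the sources used here. The authors deposited 1 table of TPM with 2 decimals for all libraries. TPM keeps no sequencing depth, so the depth of each library is unknown and no counting interval is given; overlapping, antisense and near-identical genes are uncertain.

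Members were taken by symbol, in lower case as in the rule, which left out 3 symbols in capitals. The members, their 18 role classes and the gene lists were chosen with earlier results of these data known. Each set was fitted apart in limma 3.58.1 (R 4.3.3) on log2(TPM + 1), with an intensity trend, 1 term per group, two-sided tests and Benjamini-Hochberg adjustment over all genes tested (15253 and 14716). Named are ccna1 and ccna2, the most abundant member of each family, paralogue pairs by name, and called members, at most 5 in each direction per comparison, with lists at most 3; ccnb3, ccnd3, cdk1, cdk5r1a, cdk5rap1, mcm2 and mcm4, the most abundant of smaller classes and the calls against uninjected embryos were added after their values were seen. The linear model was tested on simulated data. Alternatives were other pseudocounts, filters, scalings, fits and references, the replicate number as a block, and each library left out; the rescaling without genes above 10000 TPM and the uninjected reference were chosen after seeing the data. No sequences were used.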

Additional observations from a re-analysis of the deposited data

Results flagged for a closer look

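For 2 members the effect of szrd1 guides differed between delivery with Cas13d protein and with Cas13d mRNA by a test of the difference itself. For ccna1 the effect with protein minus the effect with mRNA was above 0 (log2 change 1.36, SE 0.187; limma, adjusted p = 0.00992). It had 15.8 and 20.3 TPM with protein and szrd1 guides and 6.93 and 5.37 TPM with protein alone. With Cas13d mRNA it had 139 and 126 TPM with szrd1 guides and 132 and 123 TPM without. Among 10 oocyte maternal RNAs, btg4 (1.96) and cth1 (1.05) were also called higher in this test, as was nanog (1.23), and the eye-field gene rx3 (-2.22) was called lower. Of the 14 zygotic patterning RNAs rx3 was the 1 called, and 7 had log2 changes above 0 and 7 below. With szrd1 guides and protein 8 of the 10 oocyte maternal RNAs were called higher than with protein alone. The part of all these RNAs in the ccna1 value was not tested. The labels give no morphological stage, so a difference in stage at collection cannot be told apart from delivery or the added guides here. For cdk5rap3 the effect with protein minus the effect with mRNA was below 0 (log2 change -1.27, SE 0.212; limma, adjusted p = 0.0221). It had 4.84 and 6.15 TPM with protein and szrd1 guides and 8.06 and 10.2 TPM with protein alone, and with Cas13d mRNA 11.7 and 10.5 TPM with szrd1 guides and 6.8 and 6.8 TPM without. Fitted on only the 4 groups involved, the adjusted p were 0.0664 for ccna1 and 0.106 for cdk5rap3. Leaving out 1 library kept the ccna1 call in 8 of 8 fits, with values between 1.19 and 1.53, and lost the cdk5rap3 call in 3 of 8.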

How the results depend on the processing

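No called member changed direction under any alternative run. Without the fold change minimum the members called were 12 with nanog guides (7 as reported; 14% of members and 7.74% of all genes), 15 with rfp guides (4; 17.4% and 13.8%), 2 for nanog over rfp guides (1; 2.33% and 5.7%) and 6 with szrd1 guides and mRNA (0; 7.23% and 4.82%). In the protein groups they were 47 with protein alone (15; 56.6% and 56.3%), 17 with szrd1 guides and protein (5; 20.5% and 12.3%), 18 with protein and reporter over mRNA (1; 21.7% and 12.4%), 54 over protein alone (14; 65.1% and 50.6%) and 2 with dnd1 guides and protein (0; 2.41% and 1.3%). With nanog guides the count was 4 under quantile normalization and 3 without genes above 10000 TPM. With rfp guides it was 0 with no filter on low values and 0 with uninjected embryos as the control. For nanog over rfp guides it was 2 with a pseudocount of 0.1, with median-of-ratios scaling and without genes above 10000 TPM, and 0 with no filter. For the reporter over Cas13d mRNA it was 2 with median-of-ratios scaling and without genes above 10000 TPM. For szrd1 guides with mRNA it was 1 under a pseudocount of 0.1, median-of-ratios scaling, quantile normalization and without genes above 10000 TPM. For protein and reporter over mRNA it was 2 with a pseudocount of 0.1 and with median-of-ratios scaling, and 0 on only the groups compared. The test of the szrd1 difference gave 0 on only the groups compared.

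Leaving out 1 library gave 2 to 12 members with nanog guides, 0 to 4 with rfp guides, 0 to 3 for nanog over rfp guides, 14 to 17 with protein alone, 4 with szrd1 guides and protein, 0 to 2 with protein and reporter over mRNA, 11 to 14 over protein alone and 1 to 2 for the szrd1 difference; the lone library left in a group is assumed to vary like the others. The share of all genes called in these fits and in the runs with other pseudocounts, filters and scalings is not given. Those counts therefore do not set the members against all genes. Replicate numbers showed no pairing common to all groups. Correlations of same-numbered deviations ran between -0.282 and 0.235 over 15 pairs of groups in the first set. In the second set they ran between -0.0777 and 0.15. With 2 libraries a group these values cannot exclude a pairing of some groups. With the replicate block 3 members were called with rfp guides. With 2 libraries a group, small changes cannot be told from spread, and the depth behind low TPM values is unknown.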
